A study of Mus musculus with 2 samples.

Results

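The glycolytic enzymes Hk1, Pfkl, Pfkp, Aldoa, Tpi1, Pgk1, Pkm and Ldha were followed in splenic CD4+ alpha beta T cells that carry the LatY136F mutation and in wildtype CD4+ alpha beta T cells. They were picked by name as the probes whose single platform gene symbol is one of 10 enzymes of the route from glucose to lactate. Of these 10, 8 were measured, by 9 probes; Hk2 and Eno1 were not analysed here. The 8 stand among 4331 measured genes. Total RNA of both genotypes was compared on each of 2 two-colour arrays of a dye-reversal pair. On array 1 channel 1 held the wildtype RNA and channel 2 the mutant RNA, and array 2 had them exchanged. LatY136F replaces a tyrosine of Lat with phenylalanine. Lat is the adaptor that links the T cell receptor to the enzymes below it, and mice with this change are known for an expansion of CD4+ T cells. Cells came from spleens by anti-CD4 bead selection and flow sorting. The sources used here give no age, sex or strain of the mice, no number of mice, and no word on whether the arrays had separate extracts. Both arrays together were counted as 1 biological comparison, with no test of the genotypes.

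Glycolysis splits glucose into 2 molecules of pyruvate through a chain of cytosolic enzymes: early steps spend ATP on phosphorylated sugars, and later steps return ATP and NADH. Lactate dehydrogenase then turns pyruvate into lactate and restores NAD+. Resting naive T cells run this route slowly, and T cells that have been activated run it fast even with oxygen present. The transcription factors Myc and HIF-1 are known activators of many of its genes, and both HIF-1 and Myc with its partner Max bind DNA at sites that often hold the letters ACGTG.

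Because most of the measured enzymes lay on the same side in the comparison below, the 250 bases before their start sites were read for the letters ACGTG on both strands. The sequences are from the RefSeq promoter table (GRCm38.p6), which matched all 8 genes with 13 start sites. Ldha is shown because its window held the most matches of the 13. Pgk1 is shown as a member with a pair of separate matches, and Pfkp as a member on the same side with none. Each runs 5′ to 3′ on the gene's own strand and ends at the base before the start site. Capitals mark ACGTG or its reverse complement CACGT, and CACGTG, the E-box, contains both. The Ldha window is chr7:46845554-46845803 (+ strand), the Pgk1 window chrX:106186850-106187099 (+ strand) and the Pfkp window chr13:6648772-6649021 (- strand).
Ldha: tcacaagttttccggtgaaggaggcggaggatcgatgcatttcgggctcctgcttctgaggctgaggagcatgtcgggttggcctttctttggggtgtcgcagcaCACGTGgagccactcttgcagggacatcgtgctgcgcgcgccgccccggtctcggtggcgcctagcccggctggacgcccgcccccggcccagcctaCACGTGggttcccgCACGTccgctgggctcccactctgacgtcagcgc
Pgk1: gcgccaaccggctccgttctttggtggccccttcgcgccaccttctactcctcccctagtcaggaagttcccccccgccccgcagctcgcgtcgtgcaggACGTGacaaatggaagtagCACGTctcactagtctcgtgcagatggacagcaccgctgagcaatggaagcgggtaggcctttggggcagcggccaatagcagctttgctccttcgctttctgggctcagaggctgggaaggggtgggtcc
Pfkp: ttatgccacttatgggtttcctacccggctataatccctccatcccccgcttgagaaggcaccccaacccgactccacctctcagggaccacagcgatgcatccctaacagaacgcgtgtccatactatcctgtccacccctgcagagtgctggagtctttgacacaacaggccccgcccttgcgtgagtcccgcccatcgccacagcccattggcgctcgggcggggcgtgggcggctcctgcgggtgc
The Ldha window had 3 matches, which begin 145, 48 and 34 bases before the start, and the first and second are E-boxes. The Pgk1 window had 2, at 150 and 131 bases before the start, and neither is an E-box. In all, 4 of the 8 genes (Ldha, Pgk1, Aldoa and Pkm) had a match in at least 1 of their windows, against 24.5% of 3427 measured genes found in the table under the same symbol. By window, 5 of 13 matched, against 20.8% of 4376 windows of measured genes and 16.6% of all 32851 windows. The E-box was in 1 of the 8 genes, against 9.72% of measured genes, and in 1 of 13 windows, against 7.84%. Both Aldoa matches lie in windows that overlap, so they are 1 site counted from a pair of start sites. Members had more windows per gene and a slightly higher median GC content (61.3% against 58.4%). The windows of Tpi1, Pfkp, Pfkl and Hk1 held no match. Set beside the ratios given below, the 4 genes with a match were all among the 6 members above 0 on both arrays, and those without one were 2 of these 6 (Tpi1 and Pfkp) and both members with opposite signs on the arrays (Pfkl and Hk1). A match is a description of the sequence and not a bound site. The windows were read after the ratios were seen. With only 2 members outside the 6, a link between match and ratio was not tested.

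All values that follow are log2 ratios of LatY136F over wildtype, centred on each array's median, so 1 is a 2-fold difference and 0.58 a 1.5-fold difference. The mean of both arrays is given with ± 0.5 times the difference between them. That difference may be technical error only. Since separate extracts are not stated, it cannot be taken as a spread between animals. The table was taken to hold log10 ratios, since array 1 tops out at exactly 2, as a 100-fold limit would on that scale. It was taken to give channel 2 over channel 1, and the sign of array 2 was turned, since the columns as deposited correlated at a Pearson r of -0.21 over 8014 probes. Base and direction are likely and not stated, and if the direction is opposite, every "higher" becomes "lower". Under this reading Gata3, the factor that sets the T helper 2 programme for which LatY136F T cells are known, stood at 2.93, which was used as a check of the sign and is not a separate finding. How bright a probe was is unknown. In bulk RNA, fewer cells of a type and less RNA per cell cannot be told apart, and levels of different genes cannot be compared.

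Most of the enzymes were higher in LatY136F cells. Of the 8, 6 were above 0 on both arrays, where 30.3% of all genes were. On both arrays 5 were at least 1.5-fold higher (Tpi1, Aldoa, Pfkp, Ldha and Pgk1), against 7.83% of all genes, and 1, Tpi1, was at least 2-fold higher, against 4.20% of all genes. In the other direction, 0 members were below 0 on both arrays (25.5% of all genes), 0 were at least 1.5-fold lower on both (2.93%) and 0 at least 2-fold lower (0.970%). The median over the 8 was 0.81, beside 0.0004 over all genes. It was 0.75 on array 1 and 0.77 on array 2, beside 0.03 and 0.02 over all genes.

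**Figure D1:**
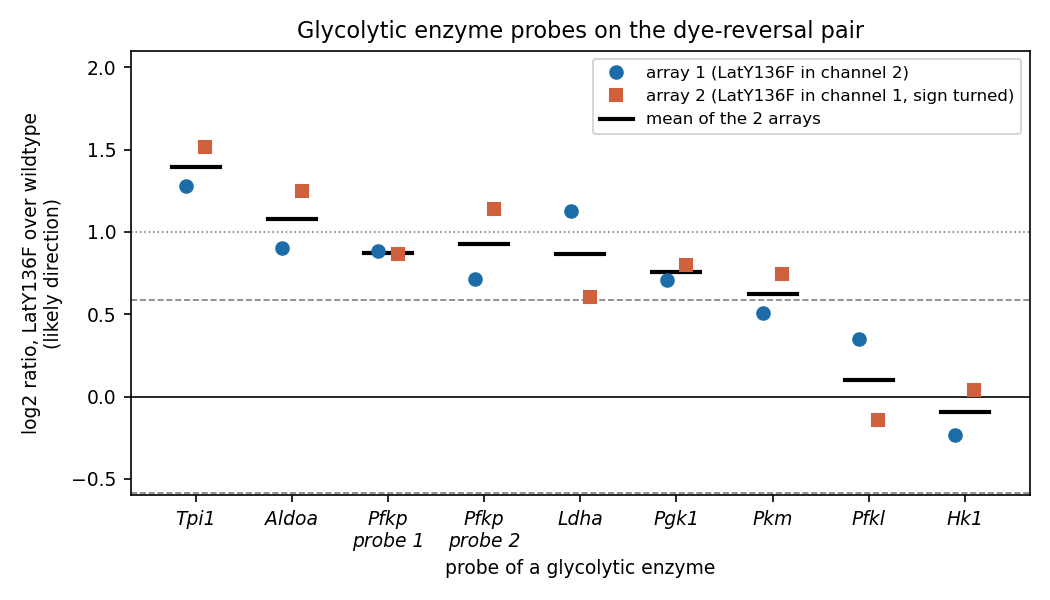
Log2 ratio of LatY136F over wildtype (y axis) for each of the 9 probes of the 8 enzymes (x axis), with circles for array 1, squares for array 2 and a bar at their mean; dashed lines mark 1.5-fold and the dotted line 2-fold. Tpi1 lies above 2-fold on both arrays, Pfkl and Hk1 lie on both sides of 0, and the 2 Pfkp probes have means of 0.87 and 0.93.

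At the entry of the pathway Hk1, the hexokinase that commits glucose to the cell by phosphorylating it, gave -0.23 on array 1 and 0.04 on array 2. The arrays lie on opposite sides of 0, so the mean of -0.10 ± 0.14 is necessarily smaller than the difference between them. In the order of all genes Hk1 ranked 2767th of 4331 from the highest. Hk2, the hexokinase that activated lymphocytes are known to induce, was not analysed here, so the phosphorylation of glucose is represented by Hk1 alone.

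Phosphofructokinase, which makes fructose 1,6-bisphosphate and is a main control point of glycolysis, was measured through a pair of isoenzyme genes, and they differed. Pfkl, the liver-type gene, gave 0.35 on array 1 and -0.14 on array 2, again on opposite sides of 0 (mean 0.10 ± 0.24). Pfkp, the platelet-type gene, gave 0.80 and 1.00, both above 1.5-fold (mean 0.90 ± 0.10, 1.87-fold). It was the one member with more than 1 probe. The first Pfkp probe gave 0.88 and 0.86 on arrays 1 and 2, and the second gave 0.71 and 1.14, so their means of 0.87 and 0.93 lay closer together than the arrays did for the second. Pfkp exceeded Pfkl by 0.45 on array 1 and by 1.14 on array 2 (0.80 ± 0.35), so the size of the gap between the isoenzymes is poorly fixed while its sign was the same on both.

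The next enzymes in the chain had the highest means of both arrays; on array 1 alone Ldha lay above Aldoa. Aldoa, the aldolase that splits fructose 1,6-bisphosphate into a pair of 3-carbon sugars, gave 0.90 on array 1 and 1.25 on array 2 (mean 1.08 ± 0.17, 2.11-fold). It passed 2-fold on array 2 and in the mean but not on array 1. Aldoc, the brain-type aldolase, stood at 0.04 ± 0.15. Tpi1, triosephosphate isomerase, which interconverts those sugars so that both can go on, gave 1.28 and 1.51 (mean 1.40 ± 0.12, 2.63-fold). Tpi1 had the highest ratio among the members on each array and ranked 131st of 4331 genes.

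In the part of the pathway that returns ATP, Pgk1, the phosphoglycerate kinase of its first ATP-yielding reaction, gave 0.71 and 0.80. With a mean of 0.75 ± 0.04 (1.69-fold) it had the smallest difference between arrays of all members. Pgk2, its testis-type relative, gave 0.28 and -0.28. Pkm, the muscle-type pyruvate kinase of the second ATP-yielding reaction, gave 0.51 on array 1 and 0.74 on array 2 (mean 0.62 ± 0.12, 1.54-fold). Its mean was past 1.5-fold and array 1 was not, so it was the member just outside the call. Pkm transcripts are spliced into the M1 and M2 forms of the enzyme, which its single probe is not known to tell apart. Pklr, the liver and red cell pyruvate kinase, stood at -0.24 ± 0.07.

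Ldha, the lactate dehydrogenase subunit that favours making lactate, gave 1.13 on array 1 and 0.61 on array 2 (mean 0.87 ± 0.26, 1.82-fold). Its arrays differed more than those of any other member, and array 2 lay just inside the 1.5-fold limit; without centring it fell outside. Ldhb, the other widely expressed subunit, which is abundant in oxidative tissue, went the opposite way, at -0.94 and -1.19 (mean -1.06 ± 0.13, 2.09-fold lower). It was at least 1.5-fold lower on both arrays. Ldha exceeded Ldhb by 2.06 on array 1 and by 1.80 on array 2 (1.93 ± 0.13). This was the widest gap, in the mean, among the 5 pairs of isoenzymes that were set side by side. Whether Pgk2, Aldoc and Pklr, forms of other tissues, were expressed in these cells is unknown, so that ranking says little.

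**Figure D2:**
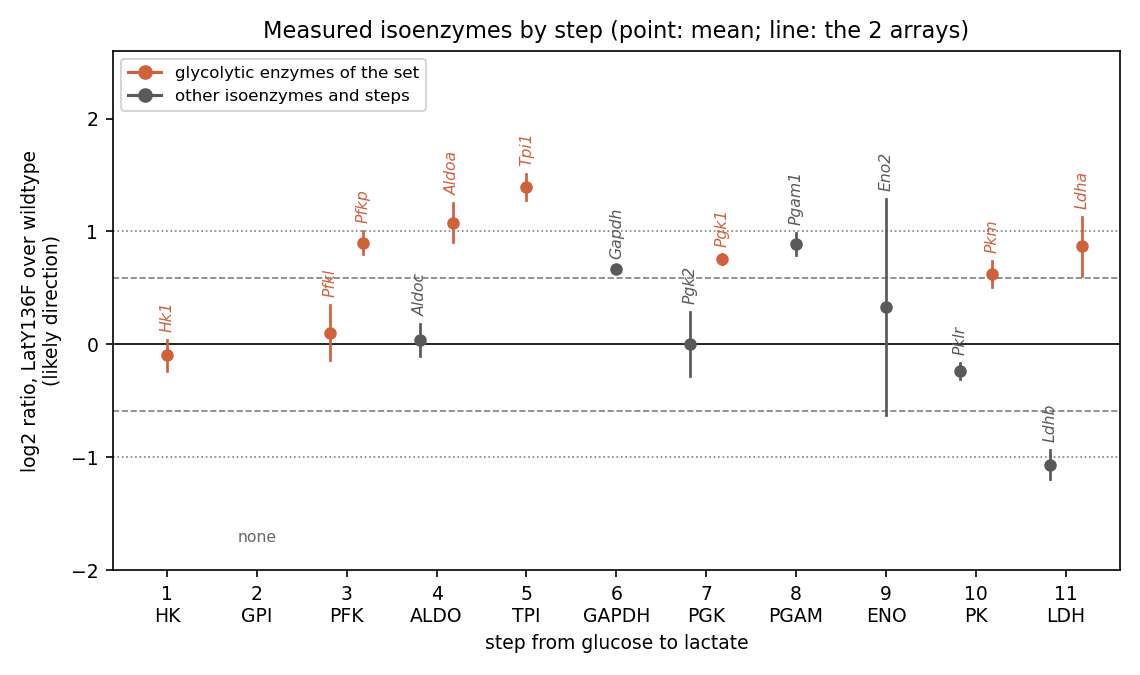
Log2 ratio of LatY136F over wildtype (y axis) by step of the route from glucose to lactate (x axis), with a point at the mean of the 2 arrays and a line between them; dashed lines mark 1.5-fold and dotted lines 2-fold, orange marks the 8 enzymes and grey the other measured isoenzymes. From step 3 to step 8 each step holds a gene that passed 1.5-fold upwards on both arrays; at step 11 Ldha and Ldhb lie on opposite sides of 0.

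At the median, the members differed between the arrays about as much as all genes did, and none came near the upper end. The members' values of 0.5 times the difference ran from 0.04 to 0.26 with a median of 0.13, beside a median of 0.15 and a 95th percentile of 0.92 over all genes. For Pfkl and Hk1 it exceeded the size of the mean, and for the other 6 it was smaller. This only restates whether both arrays had the same sign, as 6 of the 8 members and 55.8% of all genes did. Array 2 gave the higher value for 6 of the 8 members and array 1 for 2. In the order of all genes, counted from the highest under the likely direction and from the other end under the opposite one, the 6 with the same sign on both arrays ranked from 131st (Tpi1) to 486th (Pkm), with Aldoa 226th, Pfkp 302nd, Ldha 324th and Pgk1 385th, while Pfkl ranked 1660th.

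**Figure D3:**
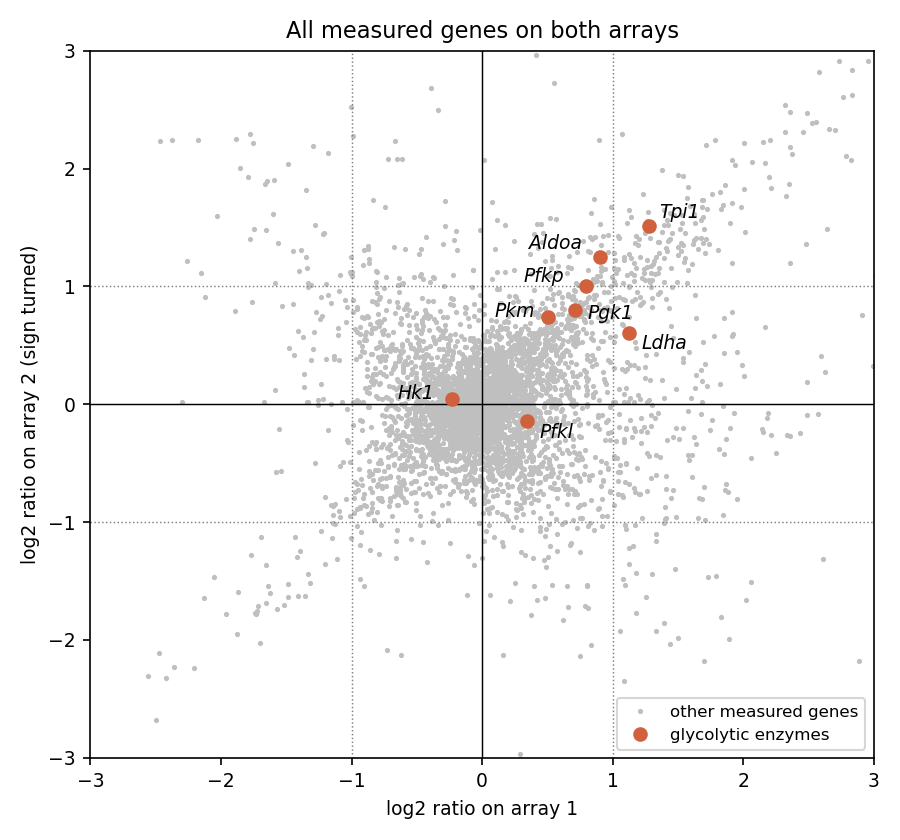
Log2 ratio on array 1 (x axis) against array 2 with its sign turned (y axis) for the measured genes, 31 of which lie outside the axes; grey points are other genes, orange points the 8 enzymes, and dotted lines mark 2-fold. Tpi1, Aldoa, Pfkp, Ldha, Pgk1 and Pkm lie in the upper right, and Pfkl and Hk1 near the centre.

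The rest of the enzymes of this route were mixed. Of 18 further isoforms and steps listed, 8 were measured, with a median of 0.08. At the 1.5-fold limit on both arrays 2 were higher and 1 was lower, beside 7.83% and 2.93% of all genes. The higher genes were Pgam1, the phosphoglycerate mutase of step 8, at 0.99 and 0.79 (mean 0.89 ± 0.10, 1.85-fold), and Gapdh, which oxidises glyceraldehyde 3-phosphate at step 6, at 0.69 and 0.65 (mean 0.67 ± 0.02, 1.59-fold). Gapdh is widely used as a reference gene. The lower gene was Ldhb. Enolase, step 9, was represented by the neuronal form Eno2 alone, and its arrays disagreed at 1.29 and -0.63, so the step has no direction here. Gpi1, step 2, was not analysed here. Gapdh, Ldha, Pgk1, Tpi1 and Aldoa have close relatives or processed copies in the mouse genome, and probes may take up RNA of such copies.

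Outside the chain, of 3 measured transport genes none passed 1.5-fold on both arrays (median 0.29). Over all genes 7.83% passed upwards and 2.93% downwards. All 3 transport genes lay above 0 on both arrays, where 30.3% of all genes did. Slc2a1, the main glucose transporter of activated T cells, gave 0.61 and 0.13 (mean 0.37 ± 0.24), and Bsg, the chaperone of the lactate transporters, gave 0.58 and 0.01 (mean 0.29 ± 0.29). All 3 measured genes of the pentose phosphate pathway, which takes glucose 6-phosphate off to make NADPH and ribose, lay above 0 on both arrays (median 0.60). Of all genes 30.3% did. Pgd, 6-phosphogluconate dehydrogenase, was at least 1.5-fold higher on both, at 0.74 and 1.01 (mean 0.87 ± 0.14). The other two, Taldo1 (0.60 ± 0.26) and Tkt (0.58 ± 0.24), are named after their values were seen and passed on 1 array each.

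Among 9 measured genes that branch off from glycolysis, 2 passed 2-fold upwards on both arrays (median 0.38), beside 4.20% of all genes. Pygl, glycogen phosphorylase, which releases glucose 1-phosphate from glycogen, gave 2.49 and 2.47 (mean 2.48 ± 0.01, 5.57-fold). Psat1, which makes phosphoserine on the serine route that leaves glycolysis, gave 1.24 and 1.15 (mean 1.20 ± 0.05, 2.29-fold). Phgdh, the enzyme before Psat1 on the serine route, gave 0.55 on both arrays, just under 1.5-fold, and is named after its value was seen.

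For the entry of pyruvate into the mitochondrion and the cycle beyond it, no list median was far from 0. Of 6 measured genes of the pyruvate dehydrogenase complex and its kinases and phosphatases, 0 passed 1.5-fold on both arrays in either direction (median -0.13). Pdp1, the phosphatase that switches the complex on, gave 1.08 and 0.02, and Pdha1, its catalytic alpha subunit, gave -0.66 and -0.26 (mean -0.46 ± 0.20). Of 9 measured genes of the tricarboxylic acid cycle and linked enzymes 0 passed as well (median 0.03). Over all genes 7.83% passed upwards and 2.93% downwards, so 0 in lists this short does not set them apart. Suclg1, a subunit of succinyl-CoA ligase, gave -0.56 and -0.04, and Idh1, the cytosolic isocitrate dehydrogenase, gave 0.58 and -1.24. Pcx, pyruvate carboxylase and the one gluconeogenesis gene measured, stood at 0.11 ± 0.09.

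The regulators did not share one direction. Of 11 measured, 3 passed 1.5-fold on both arrays, all upwards (median -0.07), beside 7.83% of all genes. Egln3, a prolyl hydroxylase that marks HIF for destruction and is itself induced by HIF, gave 4.73 on array 1 and 1.84 on array 2 (mean 3.28 ± 1.45), high on both but with a size that is poorly fixed. The kinases Akt2 (0.79 ± 0.13) and Akt1 (0.66 ± 0.06), which act on glucose uptake and hexokinase, were the others. Myc, a known activator of glycolytic genes in T cells, gave -0.44 and -0.57 (mean -0.51 ± 0.06), below 0 on both arrays and not past 1.5-fold. Hif1a was not analysed here. Of 7 measured hypoxia-induced genes outside glycolysis 1 passed, Ndrg1, a stress-response gene, at 1.21 and 0.84 (mean 1.03 ± 0.18), and the median was 0.02. Over the 9 glucose metabolism lists together, 57 of 154 genes were measured, and at 1.5-fold on both arrays 9 of these were higher and 1 was lower, beside 7.83% and 2.93% of all genes.

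**Figure D4:**
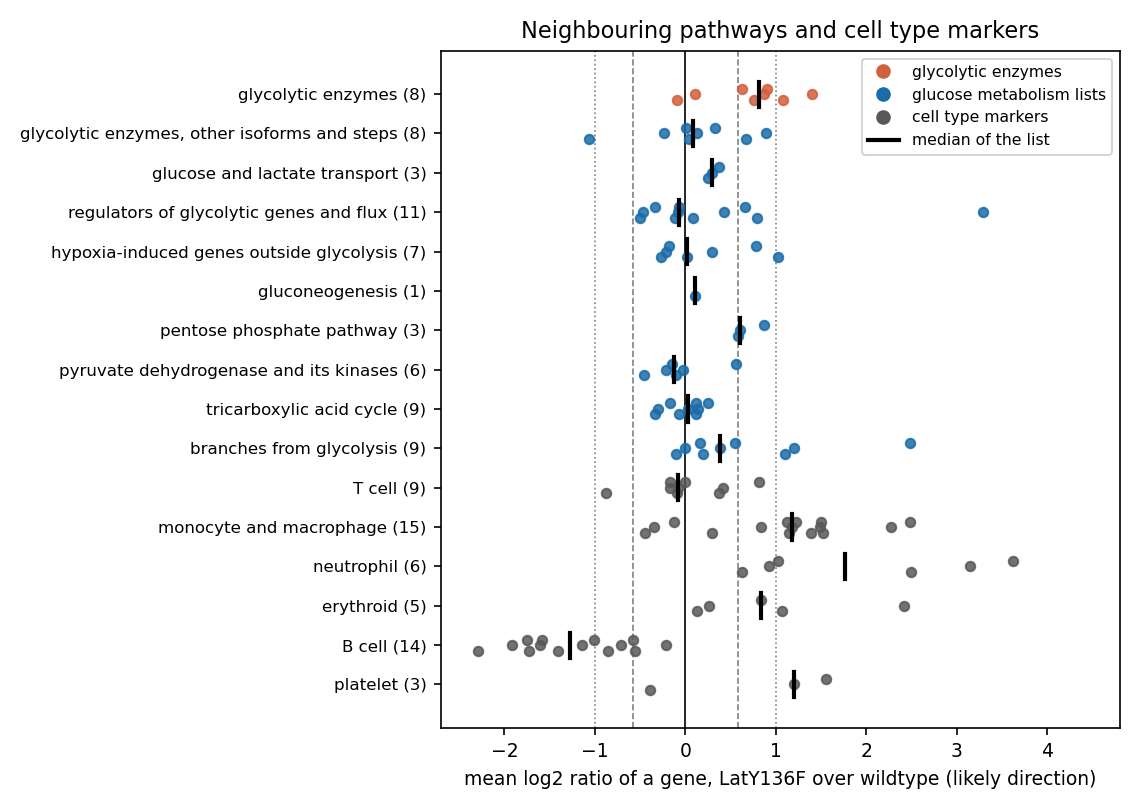
Mean log2 ratio of LatY136F over wildtype (x axis) of each measured gene in the glycolytic enzyme set, the 9 glucose metabolism lists and the 6 cell type marker lists (y axis, number of measured genes in brackets), with a bar at each list's median; dashed lines mark 1.5-fold and dotted lines 2-fold. The enzymes centre on 0.81, the tricarboxylic acid cycle on 0.03, and the medians of the monocyte, neutrophil, erythroid and platelet lists lie to the right of 0 and that of the B cell list to the left.

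Beside the enzymes, markers of several other cell types differed as well. The T cell genes Cd3e (-0.01) and Cd4 (-0.17) stood near 0. Of 9 measured T cell markers 1, Cd5 (0.81 ± 0.11), was 1.5-fold or more higher on both, with 0 lower (median -0.08, range -0.88 to 0.81). On both arrays 3 lay above 0 and 4 below, beside 30.3% and 25.5% of all genes. Cd247 was the lowest, at -0.42 and -1.34, and is named after its value was seen. Since the table holds ratios, it does not show whether a marker was present or absent. Monocyte and macrophage markers were higher by 1.5-fold or more on both arrays in 10 of 15 cases, with 0 lower (median 1.18, range -0.45 to 2.48), led by the complement gene C1qc at 2.48 and the lysozyme Lyz1 at 2.27. Of 6 neutrophil markers 3 were higher (median 1.76, range 0.63 to 3.62), led by Il1r2 at 3.62 and Lcn2 at 3.14. Of 5 erythroid markers 2 were higher, Epor at 2.42 and Hba-a1 at 1.07 (median 0.84, range 0.13 to 2.42). Of 3 platelet markers 2 were higher, Pf4 at 1.55 and Itga2b at 1.20 (median 1.20). The third, Itgb3, stood at -0.39 and is named after its value was seen. Of 14 B cell markers 10 were at least 1.5-fold lower and 0 higher (median -1.27, range -2.29 to -0.21), led by Cd79b at -2.29 and Ighm at -1.91. Every one of these cell types also makes glycolytic enzymes. The part of these cells in the ratios of the enzymes was not tested.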

How the data were processed

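Total RNA was compared on 2 two-colour arrays of a dye-reversal pair, each with LatY136F and wildtype RNA. The deposited table holds 1 value per probe and array for 8014 probes. The authors' values were read as log10 ratios; the sources used here do not give the base, the direction, or any correction, normalization or filter. The sign of array 2 was turned, values were put on the log2 scale with a factor of 3.32, and the median of each array over all probes was subtracted. Before this the deposited log10 medians were -0.0033 on array 1 and 0.0070 on array 2. In the platform annotation 4654 probes carry a single gene symbol, 73 carry several and 3287 carry none, and only the first kind was used. The RefSeq table (GRCm38.p6) held the gene identifier of 4640 of them, and no symbol changed. Probes of a gene were averaged. Only the number of arrays and no signal level is available to judge precision.

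A gene was called when both arrays passed 2-fold or 1.5-fold the same way. The calling rule was run on simulated ratios, with noise drawn separately for each array from 0.5 times the differences between arrays. Error shared by both arrays was left out, so the run does not measure how often real calls are wrong. All enzymes were named, with up to 6 called genes per glucose metabolism list (the 2 furthest from 0 where none was called), the 2 called markers furthest from 0 per cell type, and Cd3e, Cd4, Hif1a, Myc, Slc2a1 and Gapdh. Gata3, Aldoc, Pgk2, Pklr, Eno2, Taldo1, Tkt, Phgdh, Cd247 and Itgb3 are named outside this rule. Members, lists and rules were chosen with earlier results of these data known. Alternatives were single arrays, no centring, equal scale, the strongest probe, a log2 reading, the opposite sign, probes at exactly 0 left out, other folds and the mean. Python 3.11.15, pandas 2.3.3, numpy 2.4.6 and matplotlib 3.10.9 were used.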

Additional observations from a re-analysis of the deposited data

How the results depend on the processing

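Single arrays gave 2 to 3 enzymes at least 2-fold higher, where both arrays together gave 1; over all genes single arrays gave 341 to 408 and both together 182. The single arrays gave a median of 0.75 to 0.77 in place of 0.81. Without centring the median was 0.79 and 4 enzymes were at least 1.5-fold higher, Ldha being lost; the mean of the enzymes was 0.70. A 3-fold limit left 0. Read as log2, the table gave a median of 0.24 and 0 enzymes past 1.5-fold or 2-fold, as a smaller scale must. With the opposite sign 0 were higher and 5 were at least 1.5-fold lower, the median was -0.81, and the called values became -1.40 for Tpi1, -1.08 for Aldoa, -0.90 for Pfkp, -0.87 for Ldha and -0.75 for Pgk1. The other alternatives left these counts within 1.5 times, and apart from the opposite sign no called enzyme changed sign, which for values alike on both arrays says little. No paired analysis was possible because each array already holds both genotypes and the pair makes up 1 comparison.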
